A study of Rattus norvegicus with 9 samples.

Results

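The genes described here are 4 matrix metalloproteinases (Mmp2, Mmp3, Mmp9 and Mmp13) and Timp1, an inhibitor of these enzymes. They were chosen by 5 Ensembl rat identifiers, and all 5 were found among the 30560 genes of the table. The identifiers are ENSRNOG00000016695 for Mmp2, ENSRNOG00000032626 for Mmp3, ENSRNOG00000017539 for Mmp9, ENSRNOG00000008478 for Mmp13 and ENSRNOG00000010208 for Timp1. The symbols came with the identifiers when the set was chosen, and the deposited tables give no gene names. The RNA came from HBZY-1, a rat cell line of glomerular mesangial origin. Mesangial cells are the contractile cells that hold together the capillary loops of the kidney's filter. There were 9 libraries in 3 groups of 3: cells given a high-dose water extract of lyophilized powder of the leech Poecilobdella manillensis (extract), an LPS-induced model (LPS) and a control group (control). LPS is lipopolysaccharide, an outer membrane component of bacteria that provokes inflammatory responses in culture. The labels give no dose or exposure time, and do not say whether the extract cells also received LPS or what the control cells received. All groups share 1 cell line, so the replicates, described as biological, are not different animals.

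Matrix metalloproteinases are zinc-dependent enzymes that are released as inactive proenzymes and, once activated, cut proteins of the extracellular matrix. Mmp2 and Mmp9 are gelatinases and degrade denatured collagen and type IV collagen of basement membranes. Mmp3, a stromelysin, cuts proteoglycans, fibronectin and laminin and can activate other proenzymes, Mmp9 among them. Mmp13 is a collagenase that cuts fibrillar collagen. Timp1 binds the active site of most metalloproteinases and blocks it, and also forms a complex with the proenzyme of Mmp9. In the glomerulus the balance between these enzymes and their inhibitors is one of the known controls of the mesangial matrix. The libraries measured RNA, and neither protein nor enzyme activity was measured here.

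Promoter windows of Mmp3, Mmp13 and Timp1 are shown so that the sequence before their starts can be set side by side. The windows of Mmp2 and Mmp9 were not analysed here, so whether they hold the same motifs was not examined. The windows are RefSeq sequence of the build GRCr8, running from 250 bases before to 50 bases after the annotated start, 5′ to 3′ on the strand of the gene. Capitals mark matches, on either strand, to AP-1 (TGANTCA), to a TATA box (TATAAA) or to a loose NF-kB pattern (3 G, then any 5 bases, then 2 C). The window of Mmp3 is chr8:12925031-12925330 on the plus strand, that of Mmp13 is chr8:12782579-12782878 on the plus strand and that of Timp1 is chrX:3771073-3771372 on the minus strand.
Mmp3: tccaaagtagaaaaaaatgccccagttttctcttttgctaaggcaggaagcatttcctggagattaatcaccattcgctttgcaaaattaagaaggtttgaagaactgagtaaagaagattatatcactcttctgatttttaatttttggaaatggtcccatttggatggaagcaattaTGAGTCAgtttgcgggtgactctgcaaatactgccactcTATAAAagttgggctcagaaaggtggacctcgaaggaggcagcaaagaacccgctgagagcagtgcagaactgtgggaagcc
Mmp13: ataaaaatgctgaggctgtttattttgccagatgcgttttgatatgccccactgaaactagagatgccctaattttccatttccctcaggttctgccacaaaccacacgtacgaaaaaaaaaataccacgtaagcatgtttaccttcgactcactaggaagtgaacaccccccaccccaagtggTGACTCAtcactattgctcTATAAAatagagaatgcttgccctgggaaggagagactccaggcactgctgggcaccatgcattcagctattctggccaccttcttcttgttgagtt
Timp1: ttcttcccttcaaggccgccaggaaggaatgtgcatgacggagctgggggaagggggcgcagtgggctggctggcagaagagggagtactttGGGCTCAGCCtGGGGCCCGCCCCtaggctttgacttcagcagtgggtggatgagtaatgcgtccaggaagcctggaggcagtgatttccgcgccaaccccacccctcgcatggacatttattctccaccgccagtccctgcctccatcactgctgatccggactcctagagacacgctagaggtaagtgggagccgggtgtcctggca

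The window of Mmp3 held 1 AP-1 match, TGAGTCA, at bases -71 to -65 from the start, and 1 TATA box at bases -32 to -27. That of Mmp13 held 1 AP-1 match, TGACTCA, at bases -66 to -60 and 1 TATA box at bases -47 to -42. The AP-1 motif occurred in 7.33% of all 33469 promoter windows of this length and the TATA box in 14.2%. Neither set of letters occurred in the window of Timp1, which held 5 matches of the NF-kB pattern, counted over both strands and partly overlapping, between bases -158 and -136. That pattern occurred in 47.3% of all windows and in neither metalloproteinase window. Only exact matches were counted. Near variants of the AP-1 letters were not, such as tgagtaa, which stands in the windows of Timp1 and Mmp3. The absence of a match therefore does not show that a window lacks an AP-1 site. Nor does a match of the loose NF-kB pattern show that a window holds an NF-kB site. The motif letters in these windows are a description, and binding of a factor was not measured. Mmp3 and Mmp13 also lie close together in the genome. Both are on chromosome 8 of GRCr8, with the 2 protein-coding genes Mmp12 and Mmp1b between them, while Mmp2 is on chromosome 19, Mmp9 on chromosome 3 and Timp1 on chromosome X.

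**Figure D1:**
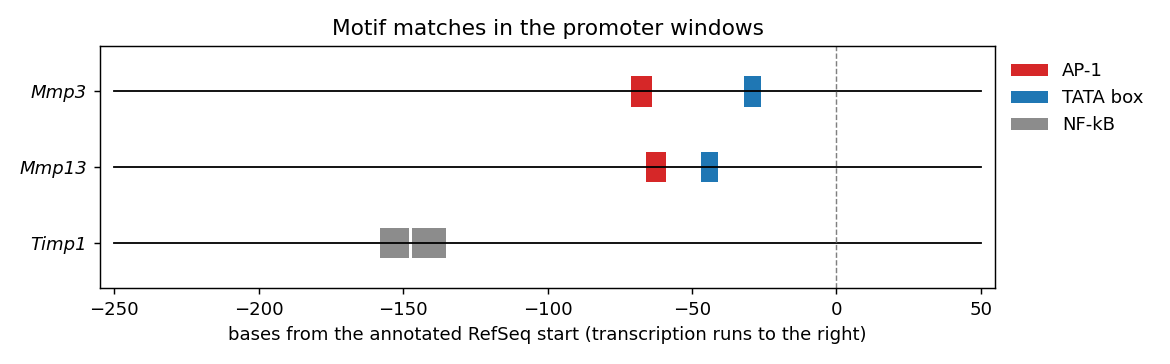
Positions of motif matches in the promoter windows of Mmp3, Mmp13 and Timp1, in bases from the annotated RefSeq start. Coloured blocks are exact matches on either strand, and near variants of the letters are not shown. Mmp3 and Mmp13 each hold an AP-1 match and a TATA box close to the start, and of the 3 motifs searched Timp1 holds only the NF-kB pattern.

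Abundance was deposited by the authors as TPM, a share of all transcripts in the library, which corrects for transcript length and so allows levels of different genes to be compared. Each library sums to the same total, so the unit is relative and keeps no record of sequencing depth. The depth of each library is therefore unknown. Errors given as SD are the spread between 3 libraries. Those given as SE come from the limma fit described below, which pooled the spread within groups over all 9 libraries and adjusted it towards a trend over all tested genes. Between 15479 and 15837 genes were above 0 TPM in a library. In bulk RNA, fewer cells that express a gene cannot be told apart from less RNA per cell. The labelled cell type was not checked against marker genes, because the identifiers of other genes could not be paired with names. Differences between groups were tested with limma on log2(TPM + 1) over the 12192 genes that averaged 1 TPM or more across the 9 libraries, and p-values were adjusted over all of them by the Benjamini-Hochberg method. A gene with an adjusted p below 0.05 is called changed, and because of the added 1 the fold changes of genes with low TPM are understated. All 5 genes passed the filter, and no gene passed it only through 1 group, since the lowest mean, that of Mmp9 in control cells, was above 2 TPM. For each of the 5 genes, 1 transcript had the same TPM as the gene in every library, and it was linked to the gene by that equality. A gene with only 1 annotated transcript would give the same, so whether the values mix isoforms was not examined.

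Of the 4 metalloproteinases, Mmp3 had the highest RNA level in LPS cells. It stood at 401, 369.9 and 318 TPM in the 3 extract libraries, at 1044, 1169 and 1241 TPM in the LPS libraries and at 131, 149 and 143 TPM in the control libraries. The 3 groups were fully separated, with LPS highest, extract between and control lowest. The mean was 1151 ± 99.7 TPM in LPS cells and 141.1 ± 9.04 TPM in control cells (SD, n = 3 each), an 8.16-fold ratio. The log2 fold change of LPS versus control was 3.02 ± 0.091 (SE; limma adjusted p = 2.72e-08), the 28th largest among 12192 genes. Extract cells averaged 363.0 ± 42.2 TPM and fell by 1.67 ± 0.091 on the log2 scale against LPS cells (limma adjusted p = 4.52e-07). They were above control cells, by 1.35 ± 0.091 on the log2 scale (limma adjusted p = 2.61e-06). By abundance Mmp3 ranked between 333rd and 431st of all genes in extract libraries, between 117th and 145th in LPS libraries and between 960th and 1114th in control libraries.

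Of the 5 genes, Mmp9 had the largest proportional rise with LPS and the lowest level. Its values were 8.38, 6.74 and 7.39 TPM in the extract libraries, 38.6, 34.5 and 37.8 TPM in the LPS libraries and 2.57, 2.66 and 2.16 TPM in the control libraries. The groups did not overlap, in the same order as for Mmp3. LPS cells averaged 36.9 ± 2.17 TPM and control cells 2.46 ± 0.267 TPM (SD, n = 3 each), a 15.0-fold ratio, and the log2 fold change was 3.45 ± 0.086 (SE; limma adjusted p = 7.79e-09). Only 17 of the other genes tested rose by more on this scale. Extract cells, at 7.50 ± 0.826 TPM, were lower than LPS cells by 2.16 ± 0.086 on the log2 scale (limma adjusted p = 9.37e-08). Against control cells they stood 1.29 ± 0.086 higher (limma adjusted p = 2.48e-06). Because Mmp9 was so low in control cells, the size depends on the pseudocount: the log2 fold change of LPS versus control was 3.86 with a pseudocount of 0.1 and 2.49 with 5, and that of extract versus control was 1.57 and 0.74. Direction and call were the same throughout.

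Mmp13 was the member whose level in extract cells was lowest relative to both other groups. It stood at 102, 99.8 and 83.3 TPM in extract libraries, at 733, 845 and 902 TPM in LPS libraries and at 190.1, 211 and 185 TPM in control libraries. Every extract value lay below every control value, and every control value below every LPS value. In LPS cells the mean was 826.7 ± 86.0 TPM and in control cells 195.3 ± 14.2 TPM (SD, n = 3 each), a 4.23-fold ratio, with a log2 fold change of 2.07 ± 0.094 (SE; limma adjusted p = 3.74e-07). Extract cells averaged 94.9 ± 10.1 TPM, 0.115 times the LPS level, and were lower than LPS cells by 3.11 ± 0.094 on the log2 scale (limma adjusted p = 2.51e-08). Among all tested genes this was the 14th lowest fold change in extract versus LPS. Against control cells the extract level was 0.486 times as high, which on the log2 scale was -1.04 ± 0.094 (limma adjusted p = 1.73e-05).

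**Figure D2:**
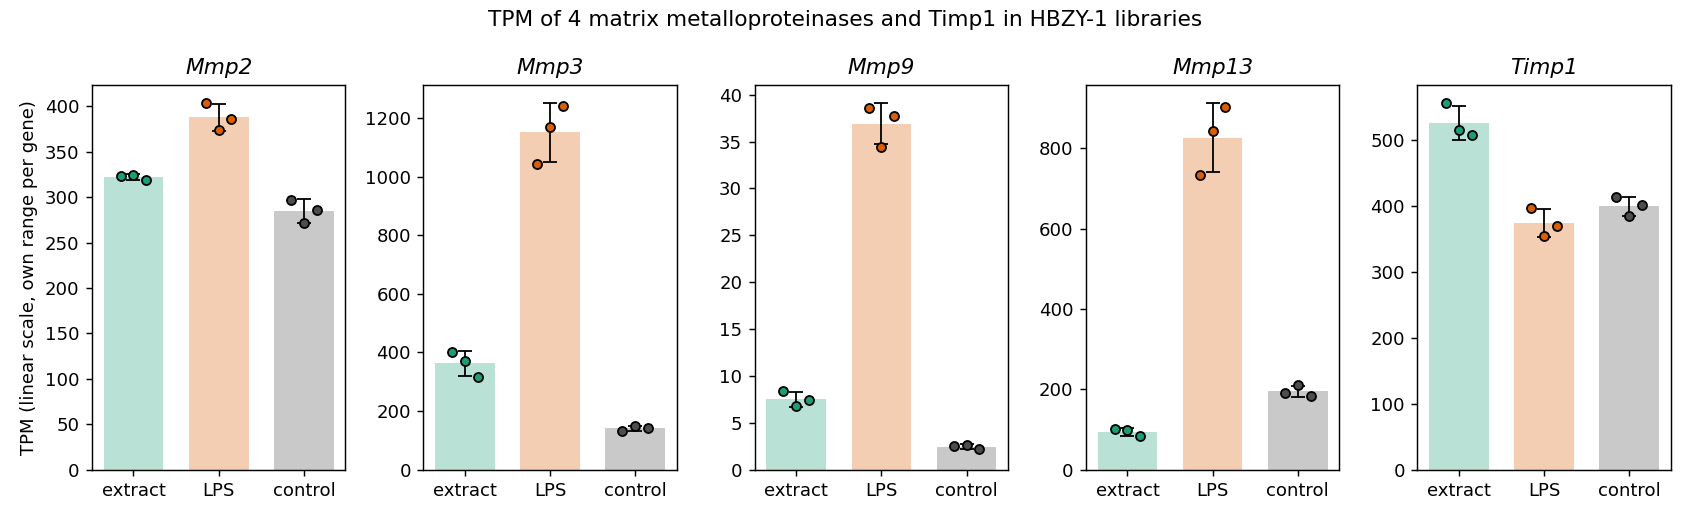
TPM of each gene by group, on a linear axis with its own range per gene. Points are libraries, bars are means of 3 libraries and error bars are SD. Mmp3, Mmp9 and Mmp13 peak in LPS cells, Mmp2 changes little in proportion, and Timp1 is highest in extract cells.

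Mmp2, the gelatinase that many mesenchymal cells make constitutively, varied far less. Its values were 324, 325 and 319 TPM in extract libraries, 404, 374 and 386 TPM in LPS libraries and 297, 271 and 286 TPM in control libraries. The groups were again separated, in the order LPS, extract, control, with a step between neighbouring groups that was small against the level. Mmp2 averaged 387.9 ± 14.8 TPM in LPS cells and 284.7 ± 13.1 TPM in control cells (SD, n = 3 each), a log2 fold change of 0.45 ± 0.040 (SE; limma adjusted p = 2.63e-05). Though small, this rise was the 521st largest among the 12192 genes tested. Extract cells, at 322.4 ± 3.35 TPM, were lower than LPS cells by 0.27 ± 0.040 on the log2 scale (limma adjusted p = 0.000321). They were higher than control cells by 0.18 ± 0.040 on the log2 scale (limma adjusted p = 0.00427). Among the tested genes, ordered from highest to lowest fold change, Mmp2 was 2830th in extract versus control.

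Timp1, the inhibitor, did not follow the enzymes. It had 556, 515 and 508 TPM in extract libraries, 397, 355 and 369.7 TPM in LPS libraries and 413, 384.5 and 401 TPM in control libraries. All 3 extract libraries were above the other 6, while LPS and control libraries overlapped. Extract cells averaged 526.3 ± 25.7 TPM and LPS cells 373.9 ± 21.6 TPM (SD, n = 3 each), a log2 fold change of 0.49 ± 0.050 (SE; limma adjusted p = 2.5e-05). Extract cells also stood 0.40 ± 0.050 higher on the log2 scale than control cells, which averaged 399.6 ± 14.4 TPM (limma adjusted p = 0.000147). Between LPS and control cells the log2 fold change was -0.10 ± 0.050, with a 95% interval of -0.21 to 0.02 (limma adjusted p = 0.159). After rescaling the libraries by the median of ratios that difference was 0.00. In the RefSeq annotation Timp1 overlaps Syn1, the gene of the neuronal protein synapsin 1, and the strandedness of the libraries is not given in the sources used here, so reads of the overlapping stretch may not be told apart.

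**Figure D3:**
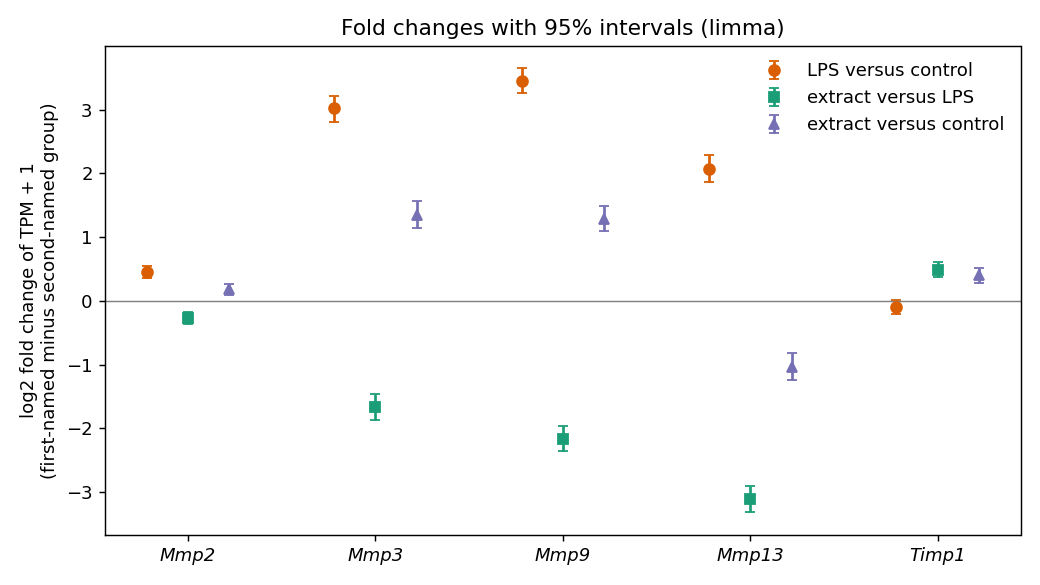
Log2 fold changes of TPM + 1 for the 5 genes in the 3 comparisons, first-named minus second-named group, with 95% intervals from limma. Intervals of Mmp3, Mmp9 and Mmp13 lie far from 0 in every comparison, those of Mmp2 lie close to 0, and that of Timp1 includes 0 in LPS versus control.

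The counts over the 5 genes are set beside those over all tested genes. The 5 genes were chosen with earlier results of these data known, so their counts and medians are a description and not a test of the set. In LPS versus control 4 of the 5 genes rose, Timp1 being the exception, where 9.79% of all tested genes were called higher. Mmp3, Mmp9 and Mmp13 rose at least 2-fold, as did 1.29% of all tested genes. The median log2 fold change of the 5 genes was 2.07, against -0.08 over all tested genes. In extract versus LPS the 4 metalloproteinases were lower, where 25.0% of all genes were called lower, and Timp1 was higher, where 34.4% were called higher. Mmp3, Mmp9 and Mmp13 were at least 2-fold lower, compared with 2.05% of all genes. The median of the 5 genes was a log2 fold change of -1.67 here, against 0.04 over all genes. In extract versus control Mmp2, Mmp3, Mmp9 and Timp1 were higher, where 22.3% of all genes were called higher, and Mmp13 was lower, where 29.4% were called lower. At least 2-fold higher were Mmp3 and Mmp9, as were 1.27% of all genes, and at least 2-fold lower was Mmp13, as were 1.85%. Mmp13 lay at the edge of that limit: its log2 fold change was -0.95 without extract replicate 3 and -0.98 without control replicate 2, both still called lower. Mmp9 was under the limit with a pseudocount of 5. The median of the 5 genes was 0.40 and that of all genes -0.04. Values of the 2 groups did not overlap for 4 of the 5 genes in LPS versus control, for all 5 in extract versus LPS and for all 5 in extract versus control, while the shares over all tested genes were 50.1%, 65.1% and 61.1%.

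Since the comparisons share libraries, each gene's calls in the 3 of them are not independent, and they are given side by side. Mmp2, Mmp3 and Mmp9 were higher in LPS cells than in control cells and lower in extract cells than in LPS cells. In extract cells they were above control, a set of calls found in 1.18% of tested genes. Mmp13 differed in the last of these, since its extract level was below control, as in 3.09% of tested genes. Timp1 was called only in the comparisons with extract cells and was higher in both, a set of calls found in 8.65% of tested genes.

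**Figure D4:**
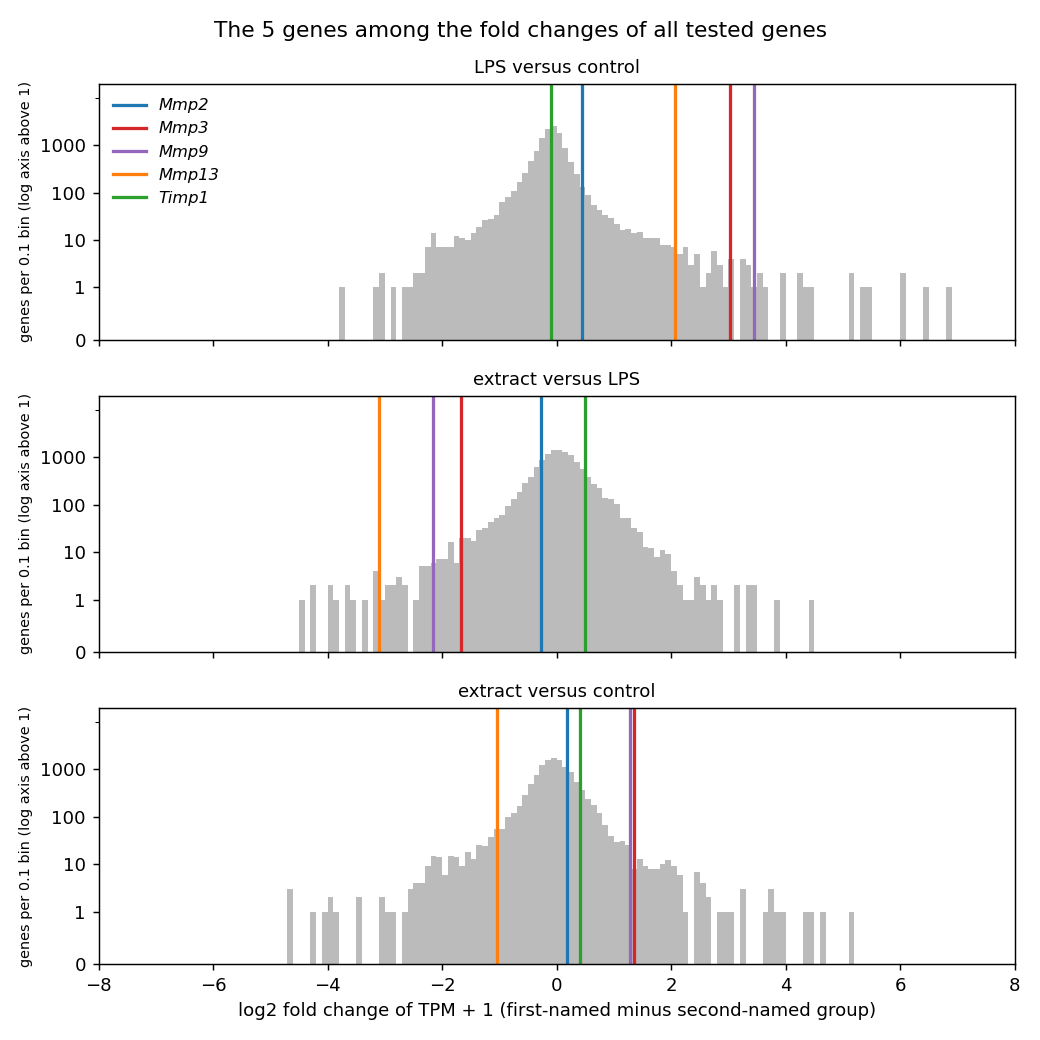
Numbers of tested genes by log2 fold change in bins of 0.1 (grey bars, axis logarithmic above 1), for each comparison, first-named minus second-named group. Coloured lines mark the 5 genes. In LPS versus control Mmp3 and Mmp9 lie in the far upper tail, and in extract versus LPS Mmp13 lies in the far lower tail, while Mmp2 and Timp1 lie closer to 0 in all 3 comparisons, between -0.27 and 0.49.

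The order of the levels differed between groups. In extract cells Timp1 was highest at 526.3 ± 25.7 TPM, followed by Mmp3 at 363.0 ± 42.2 TPM and Mmp2 at 322.4 ± 3.35 TPM, whose values overlapped, then Mmp13 and Mmp9. In LPS cells Mmp3 led and Mmp13 came next, with no overlap between them, followed by Mmp2 and Timp1, which overlapped, and Mmp9. In control cells the order was Timp1, Mmp2, Mmp13, Mmp3 and Mmp9, and no neighbours in it overlapped. The summed TPM of the 4 metalloproteinases lay between 727 and 835 in extract libraries, between 2219 and 2567 in LPS libraries and between 616 and 634 in control libraries. Mmp13 made up 11.5% to 12.5% of that sum in extract libraries, 33.0% to 35.2% in LPS libraries and 30.0% to 33.3% in control libraries. The share of Mmp3 was 43.7% to 48.1% in extract libraries, 47.0% to 48.3% in LPS libraries and 21.1% to 23.5% in control libraries. Mmp2, which held 38.8% to 43.8% of the sum in extract libraries and 42.7% to 47.9% in control libraries, held 15.0% to 18.2% in LPS libraries. Mmp9 never exceeded 1.74%.

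Ratios within a library do not change when all genes of that library are scaled by the same factor. The TPM ratio of Mmp3 to Timp1 was 0.688 ± 0.0549 in extract cells, 3.10 ± 0.405 in LPS cells and 0.354 ± 0.0351 in control cells (SD, n = 3 each). For Mmp13 to Timp1 it was 0.180 ± 0.0152 in extract cells, 2.22 ± 0.325 in LPS cells and 0.490 ± 0.052 in control cells. Thus Mmp3 and Mmp13 RNA exceeded Timp1 RNA in LPS libraries and in no library of the other groups. Mmp9 to Timp1 gave 0.0142 ± 0.00103 in extract cells, 0.0988 ± 0.0028 in LPS cells and 0.00617 ± 0.000771 in control cells. The ratio of Mmp2 to Timp1 was 0.613 ± 0.0272 in extract cells, 1.04 ± 0.0153 in LPS cells and 0.712 ± 0.007 in control cells, so that extract libraries were below control libraries although the Mmp2 level itself was higher. In all 4 ratios the 3 groups were separated without overlap. How often ratios of other genes to Timp1 do the same was not examined. For the TPM of single genes, separation of 2 groups was common, at 50.1% of tested genes or more in each comparison. Timp1, the shared denominator, was itself higher in every extract library than in any other library.

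**Figure D5:**
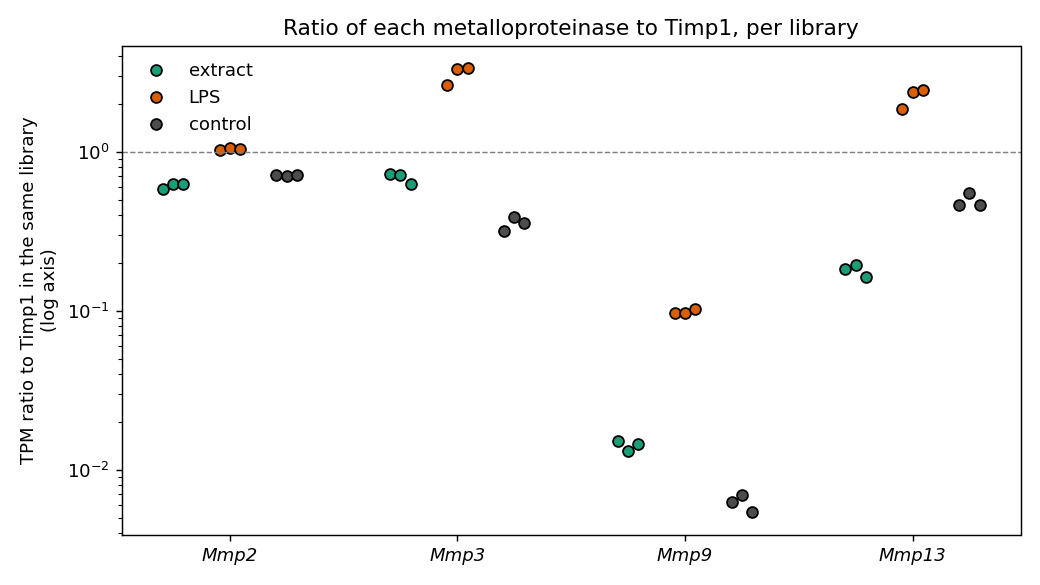
TPM ratio of each metalloproteinase to Timp1 in the same library, on a log axis, with 1 point per library. The dashed line marks equal TPM. Ratios are highest in LPS libraries for all 4 enzymes, and in extract libraries they are below control for Mmp2 and Mmp13 and above control for Mmp3 and Mmp9.

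The TPM ratio of Mmp3 to Mmp13 varied less within a group than between groups. It was 3.71 to 3.95 in extract libraries, 1.37 to 1.42 in LPS libraries and 0.690 to 0.775 in control libraries. A narrow range within a group was not particular to this pair. For Mmp2 to Timp1 the ratio was 0.582 to 0.631 in extract libraries, 1.02 to 1.05 in LPS libraries and 0.705 to 0.719 in control libraries. In LPS libraries the coefficient of variation was 8.66% for Mmp3 and 10.4% for Mmp13, above the median of 5.8% over tested genes, and LPS replicate 1 was lowest for both. In extract libraries it was 11.6% and 10.6%, where the median was 4.67%, and extract replicate 3 was lowest for both. In control libraries it was 6.41% and 7.27%, where the median was 5.17%. There the lowest library differed, being control replicate 1 for Mmp3 and control replicate 3 for Mmp13. For Mmp2 it was 1.04% in extract, 3.81% in LPS and 4.6% in control libraries, and for Timp1 4.87%, 5.78% and 3.61% in the same groups. The labels give no batch, so whether libraries were grown or prepared together was not examined.

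The genes whose profiles over the 9 libraries were most like those of the 2 members with the widest range are given by identifier, since their names could not be paired. Likeness was taken as the highest correlation on the log2 scale among all tested genes, and the 9 libraries form 3 groups that drive it. The closest to Mmp9 was ENSRNOG00000009832, with 83.8 ± 0.935 TPM in extract cells, 134 ± 5.96 TPM in LPS cells and 63.1 ± 0.915 TPM in control cells (SD, n = 3 each). Its log2 fold change in LPS versus control was 1.07, against 3.45 for Mmp9. The closest to Mmp13 was ENSRNOG00000003170, with 7.46 ± 0.883 TPM in extract cells, 42.1 ± 5.62 TPM in LPS cells and 14.4 ± 0.57 TPM in control cells. It was highest in LPS cells and lowest in extract cells, an order shared with Mmp13 because the gene was picked for that likeness.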

How the data were processed

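The authors deposited TPM values with 2 decimals for genes and for transcripts, each in 1 table of the 9 libraries. Per the submitters' processing notes the tools were RSEM 1.3.3, HISAT2 2.1.0 and fastp, with no roles or settings. Build, annotation, strandedness and depth: not given in the sources used here. Columns were assigned to libraries by the code that opens each title. The reference holds 47357 genes, of which 0 carry an Ensembl identifier, so the lists of other proteinases, inhibitors, transcription factors and cell type markers were not analysed here.

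TPM was taken as log2(TPM + 1), genes averaging under 1 TPM were left out, and limma 3.58.1 (R 4.3.3) fitted a mean for each of the 3 groups, with a trend of variance on mean, two-sided tests and 6 residual degrees of freedom. As a check of the code, the fit was run on simulated data with independent noise and added rises in LPS cells. That simulation was simpler than these data, and no result here rests on it. P-values measure the spread between libraries described as biological replicates, whose origin is not given further. The members and lists were chosen with earlier results of these data known. Named genes were the 5 members and, by identifier, the closest profile to each of the 2 members with the widest range. Same-numbered libraries were not taken as paired, since their deviations from the group means correlated between -0.055 and 0.095. Alternatives covered the pseudocount (0.1 and 5), the filter (none and 5 TPM), the scaling of the libraries, fits of the 2 groups compared, the variance trend, library weights, a replicate block and leaving out each library.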

Additional observations from a re-analysis of the deposited data

How the results depend on the processing

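The 15 fold changes of the 5 genes were recomputed under 19 alternatives, which gave 285 values. Of these, 284 kept the direction and the side of the threshold. The exception was Timp1 in LPS versus control: its log2 fold change of -0.10 passed the threshold with the replicate block (limma adjusted p = 0.0418), although the numbers were not shown to pair the libraries, and over all alternatives its adjusted p ranged from 0.0418 to 0.968. The cause was not tested. With the block LPS versus control had 1105 genes higher and 3553 lower, against 1193 and 3769 without it, and it changed no other call of the 5 genes. The counts over all genes in LPS versus control moved with scaling: median-of-ratios scaling gave 2102 higher and 2278 lower, and quantile normalization 1940 and 2402. Both centre the libraries, and they moved the median log2 fold change of all genes by 0.085 and 0.082. Leaving out any 1 library changed no call of the 5 genes. Without read depth, the precision of the low Mmp9 values in control cells is unknown.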
